A study of Mus musculus with 6 samples.

Results

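The Gimap genes encode GTPases of immunity-associated proteins, a family of small GTP-binding proteins found mainly in lymphocytes. Gene symbols Gimap1, Gimap3, Gimap4, Gimap5, Gimap6, Gimap7, Gimap8 and Gimap9 were taken from the deposited table by name, and all transcripts of a symbol were summed. This gave 8 genes with 21 annotated transcripts, among 41254 gene symbols in all. RNA came from DN3a thymocytes of adult C57BL/6 mice, double-negative precursors of T cells at the step where a receptor beta chain gene is assembled. There were 3 libraries from mice of the genotype Tg_Cd2_GATA3, called transgenic here, and 3 from wild-type mice. The genotype name joins Cd2 and GATA3, a zinc finger transcription factor of T cell development; the sources used here do not spell out the promoter, the number of founder lines or whether each library came from a separate mouse. The p-values therefore measure sample-to-sample spread alone, and technical differences can be part of it. The series title describes GATA3 overexpression, and the comparison addresses how RNA levels differ with it.

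GIMAP proteins sit on membranes inside the cell and bind GTP through a loop shared with other GTPases. They are best known for keeping mature T and B cells alive. Loss of Gimap5 causes a shortage of T cells in the BB rat and in mice, and loss of Gimap1 or Gimap6 in mice also lowers mature lymphocyte numbers. In mice and rats the genes lie side by side in a single cluster, and the RNA of many of them is more abundant in mature T cells than in immature thymocytes.

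All 8 members lie on chromosome 6 between 48647234 and 48770851, a span of 124 kb (GENCODE M21 on GRCm38, the mm10 coordinates). The order is Gimap8, Gimap9, Gimap4, Gimap6, Gimap7, Gimap1, Gimap5 and Gimap3, with Gimap6 and Gimap3 on the minus strand and the others on the plus strand. The coding sequence of each member's most abundant transcript held 1 copy of the loop that binds the phosphates of GTP. For Gimap8 that coding sequence has 349 codons, and whether it is complete was not tested. The 24 bases of the loop are shown because they show how closely Gimap3 and Gimap5 resemble each other, which bears on how fragments were divided between them. The sequences are from the GENCODE M21 transcripts, and capitals mark the codons of the first glycine and of the closing glycine, lysine and serine.

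Gimap8 (chr6:48650256-48650279, plus strand): GGGaaacagggcgcaGGCAAAAGT
Gimap9 (chr6:48677523-48677546, plus strand): GGGaagactggaaatGGGAAGAGT
Gimap4 (chr6:48690421-48690444, plus strand): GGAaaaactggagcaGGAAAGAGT
Gimap6 (chr6:48702750-48702773, minus strand): GGGaaaacaggaagcGGGAAAAGT
Gimap7 (chr6:48723524-48723547, plus strand): GGGaaaacaggaagtGGAAAGAGC
Gimap1 (chr6:48742552-48742575, plus strand): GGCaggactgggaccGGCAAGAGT
Gimap5 (chr6:48752594-48752617, plus strand): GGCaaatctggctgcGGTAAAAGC
Gimap3 (chr6:48765887-48765910, minus strand): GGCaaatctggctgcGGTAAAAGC

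Gimap3 and Gimap5 were identical over these 24 bases, whereas the other members differed from Gimap5 at 7 to 10 of them. Over the whole coding sequence Gimap3 and Gimap5 shared 88.9% of 899 aligned bases, and the next closest pair, Gimap6 and Gimap8, shared 68.2%. Of the 50-base stretches of the Gimap5 transcript, 9.98% also occurred in Gimap3. A read lying wholly within such a stretch could come from either gene, and no read length was found in the sources used here. Gimap4, Gimap6, Gimap8 and Gimap9 shared no 50-base stretch with an annotated transcript of another gene.

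The libraries held 39022281 to 42016334 fragments in the transgenic group and 45469459 to 46985605 in the wild-type group. Transgenic replicate 3 and wild-type replicate 1 had 16840 and 18522 fragments from a set of Y-linked genes (Uty, Kdm5d, Eif2s3y, Ddx3y) and the remaining libraries 16 to 26, so each group held 1 library with Y-linked RNA. Gata3, the targeted gene, averaged 57.9 ± 4.05 CPM in transgenic libraries and 43.6 ± 5.48 CPM in wild-type libraries (SD, n = 3 each), with no overlap between the groups (log2 fold change 0.41 ± 0.10 SE, edgeR quasi-likelihood test, adjusted p = 0.170). CPM are fragment counts scaled to library size with TMM factors. All 12 DN3a marker genes, Il2ra, Ptcra and Rag1 among them, stood at 1 CPM or more. The receptor alpha constant gene Trac, a sign of later thymocytes and mature T cells, was at 0.373 ± 0.221 CPM in transgenic and 0.430 ± 0.203 CPM in wild-type libraries (SD, n = 3 each). Trac does not stand for the 10 genes listed for later thymocyte stages, of which 9 reached 1 CPM. These 10 summed to 467 to 504 CPM in transgenic and 519 to 573 CPM in wild-type libraries. In transgenic libraries Cd4 averaged 3.71 ± 1.01 and Cd8a 3.23 ± 2.12 CPM (SD, n = 3). In wild-type libraries they averaged 6.88 ± 0.123 and 8.18 ± 2.29 CPM (SD, n = 3). Neither was called (edgeR, adjusted p = 0.162 and 0.221).

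The 8 genes covered a wide range of levels in DN3a cells. Per length of transcript, as FPKM (the authors' unit, fragments scaled to transcript length and library size) averaged over all 6 libraries, Gimap9 was highest at 90.4 ± 6.79 FPKM, followed by Gimap1 at 76.4 ± 11.3 and Gimap6 at 41.4 ± 5.13 FPKM (SD, n = 6). Gimap5 stood at 9.41 ± 2.08 FPKM, Gimap8 at 3.63 ± 0.665 and Gimap7 at 3.16 ± 0.582 FPKM (SD, n = 6). Gimap4, at 0.385 ± 0.113 FPKM, and Gimap3, at 0.146 ± 0.149 FPKM, were close to the limit of detection (SD, n = 6). Gimap9 thus exceeded Gimap4, its neighbour in the cluster, 235-fold in mean FPKM, and 174-fold to 385-fold within single libraries. Gimap9, Gimap1 and Gimap6 lay above 93.6%, 92.1% and 83.8% of the tested genes in mean FPKM, Gimap5 above 50.2%, and Gimap4 above 10.8%. Together Gimap1, Gimap6 and Gimap9 gave 87.0 to 88.4% of the family's CPM in transgenic libraries and 88.3 to 89.4% in wild-type libraries.

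The ranges over the 6 libraries did not overlap between Gimap1 and Gimap6, Gimap6 and Gimap5, Gimap5 and Gimap8, or Gimap7 and Gimap4. They did overlap between Gimap9 and Gimap1, between Gimap8 and Gimap7 and between Gimap4 and Gimap3. Within each library Gimap9 was nevertheless above Gimap1 in 6 of 6 and Gimap4 above Gimap3 in 6 of 6, while Gimap8 was above Gimap7 in 5 of 6. The well-expressed genes were not neighbours: Gimap9, Gimap6 and Gimap1 alternate along the chromosome with Gimap4 and Gimap7, as the map of levels along the cluster shows.

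**Figure D1:**
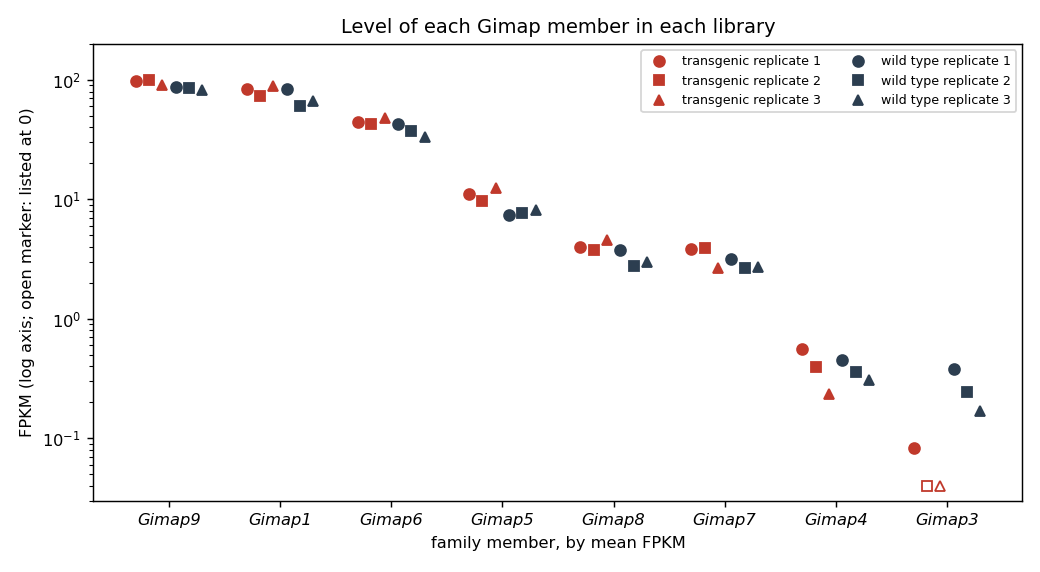
FPKM on a log axis for each Gimap member, ordered by mean FPKM, in each transgenic (red) and wild-type (dark) library; marker shape gives the replicate and open markers are libraries listed at 0. Levels run from 90.4 FPKM on average for Gimap9 to 0.146 FPKM for Gimap3, which was listed at 0 in transgenic replicates 2 and 3.

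**Figure D2:**
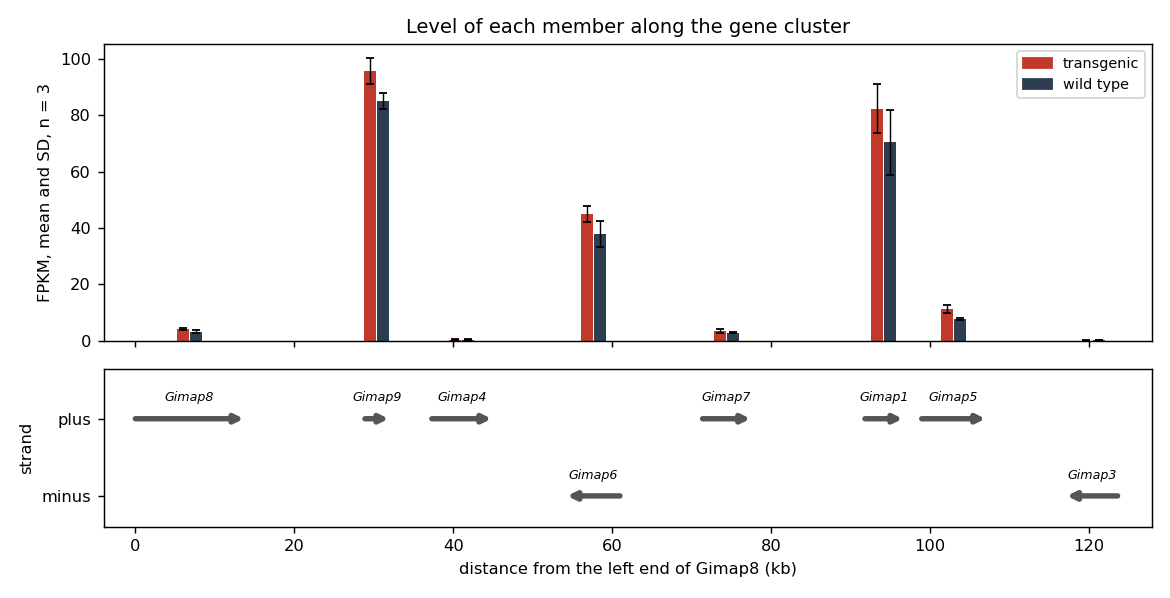
Mean FPKM with SD over 3 libraries (bars, transgenic red and wild type dark) above a map of the members, with arrows for strand and distance in kb from the left end of Gimap8. Gimap9, Gimap6 and Gimap1 stand out at 95.7, 44.9 and 82.4 FPKM in transgenic and 85.1, 37.8 and 70.5 FPKM in wild-type libraries, with low members between them.

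In the comparison of transgenic with wild-type cells, no Gimap gene passed the threshold over all genes. Gimap3 was too rare to be tested, and of the 7 tested members 0 were called at an adjusted p under 0.05 (edgeR quasi-likelihood test with Benjamini-Hochberg adjustment over 14653 genes), where 0.0136% of all genes were called. DESeq2 called 0 as well, among the 5 members to which it gave an adjusted p, where it called 497 of 9511 genes or 5.23%. At an unadjusted p under 0.05, 5 of the 7 were higher in transgenic cells and 0 lower, beside 5.71% of all genes higher and 7.7% lower. The log2 fold change was above 0 for 6 of 7, beside 50.2% of all genes, and its median over the 7 was 0.26, beside 0.0011 over all genes. The members share libraries, and some may share fragments, so they are not independent of each other. They were also chosen with earlier results of these data known, so these counts are a description and no test of the family. In bulk RNA fewer cells of a kind and less RNA per cell cannot be told apart.

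The means of the 3 abundant members differed between the groups by ratios of 1.13 to 1.20. Gimap1, needed in mice for mature lymphocytes, had 116, 105 and 119 CPM in transgenic replicates 1, 2 and 3, against 110, 87.0 and 86.3 CPM in wild-type replicates 1, 2 and 3. The groups overlapped, because wild-type replicate 1 lay above transgenic replicate 2. The means were 113 ± 7.23 CPM in transgenic and 94.3 ± 13.3 CPM in wild-type libraries (SD, n = 3 each), a log2 fold change of 0.26 ± 0.09 SE (edgeR, adjusted p = 0.277). Without wild-type replicate 1 it was 0.38 and passed the threshold (edgeR, adjusted p = 0.0228); in that fit 0.992% of all genes were called higher, and no other member passed. This was the only fit, of 18 alternatives, in which any member was called.

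Gimap9, whose function is less well described, had 119.9, 108 and 105 CPM in transgenic replicates 1, 2 and 3, against 102, 99.3 and 93.9 CPM in wild-type replicates 1, 2 and 3. Every transgenic value lay above every wild-type value, by a narrow margin. The ratio of the means was 1.13, the lowest of the tested members with a ratio above 1, and the log2 fold change was 0.17 ± 0.06 SE (edgeR, adjusted p = 0.293), or 0.11 without transgenic replicate 1. Gimap6, whose product binds the autophagy protein Gabarapl2, had 88.2, 80.9 and 91.9 CPM in transgenic replicates 1, 2 and 3, against 84.9, 72.7 and 66.8 CPM in wild-type replicates 1, 2 and 3. Again wild-type replicate 1 fell among the transgenic values, and the log2 fold change was 0.22 ± 0.09 SE (edgeR, adjusted p = 0.336). Leaving out wild-type replicate 1 gave 0.32, and leaving out wild-type replicate 3 gave 0.14.

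Gimap5, the member tied to T cell loss in the BB rat, had the largest log2 fold change of the tested members. Its values were 22.2, 18.7 and 26.5 CPM in transgenic replicates 1, 2 and 3, against 17.7, 15.8 and 16.5 CPM in wild-type replicates 1, 2 and 3. The groups did not overlap; Gimap5 and Gimap9 were the tested members of which this held in the upward direction, beside 8.73% of all tested genes. The means were 22.5 ± 3.90 CPM in transgenic and 16.7 ± 0.954 CPM in wild-type libraries (SD, n = 3 each), a ratio of 1.35, and the log2 fold change was 0.43 ± 0.13 SE, with a 95% interval of 0.13 to 0.73 (edgeR, adjusted p = 0.219). The estimate ran from 0.29 without transgenic replicate 3 to 0.55 without transgenic replicate 2.

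Gimap8 is known for repeated GTPase domains, which the coding sequence used above, with 1 copy of the loop, does not show. Its deposited transcript model has 3654 bases, against 3160 for the same transcript in GENCODE M21. Gimap8 had 15.7, 13.9 and 16.8 CPM in transgenic replicates 1, 2 and 3, against 14.7, 10.3 and 11.7 CPM in wild-type replicates 1, 2 and 3 (log2 fold change 0.34 ± 0.15 SE, edgeR, adjusted p = 0.368). The groups overlapped through wild-type replicate 1. Gimap7, whose human counterpart can pair with GIMAP2 and stimulate its GTPase, had 5.36, 5.29 and 3.53 CPM in transgenic replicates 1, 2 and 3, against 4.36, 3.70 and 3.74 CPM in wild-type replicates 1, 2 and 3. Transgenic replicate 3 was the lowest of all 6 libraries, and the log2 fold change was 0.27 ± 0.23 SE (edgeR, adjusted p = 0.672). It was 0.44 without transgenic replicate 3 and 0.17 without transgenic replicate 1.

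**Figure D3:**
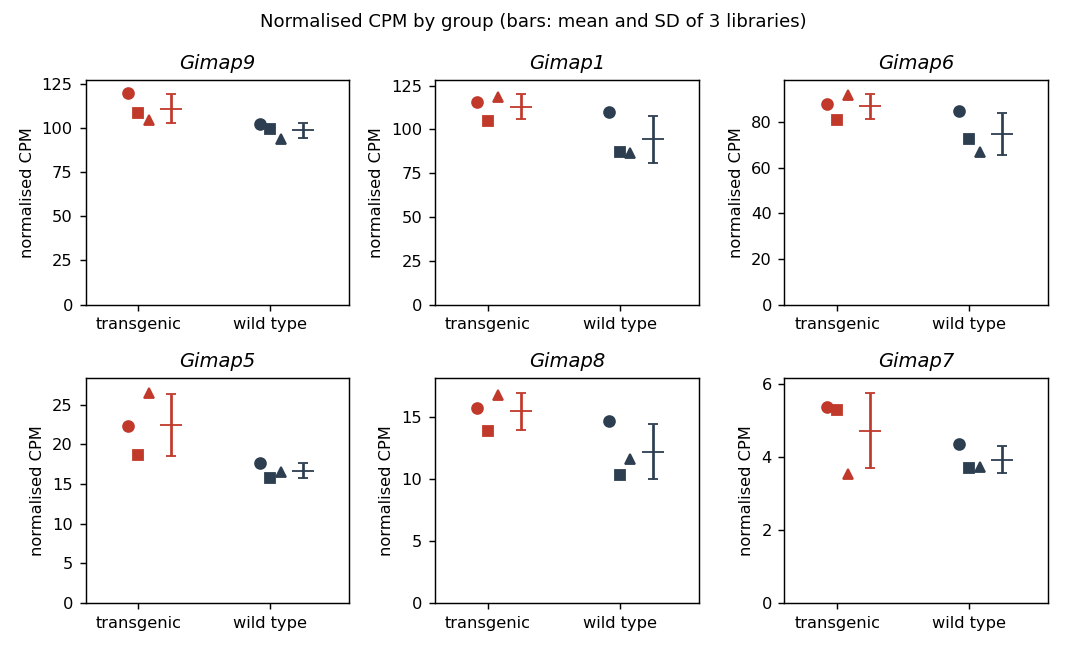
Normalised CPM (y axis from 0) of the 6 members with a mean FPKM above 1, in transgenic (red) and wild-type (dark) libraries, with circle, square and triangle for replicates 1, 2 and 3 and the mean and SD of 3 libraries beside them. Groups are separate for Gimap9 and Gimap5 and overlap for Gimap1, Gimap6, Gimap8 and Gimap7.

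Gimap4 and Gimap3 were barely detected. Gimap4, which in mice speeds the death of T cells committed to apoptosis, had 42, 25 and 18 fragments in transgenic replicates 1, 2 and 3, against 43, 31 and 28 in wild-type replicates 1, 2 and 3. Its log2 fold change was -0.08 ± 0.54 SE with a 95% interval of -1.29 to 1.12, so the data did not resolve the direction of a difference (edgeR, adjusted p = 0.970). The direction turned when wild-type replicate 1 or transgenic replicate 3 was left out (0.12 and 0.15), or both of them (0.35).

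Gimap3, the close relative of Gimap5, had an estimated 4, 0 and 0 fragments in transgenic replicates 1, 2 and 3, against 20, 13 and 8 in wild-type replicates 1, 2 and 3. The groups did not overlap, but their nearest libraries held 4 and 8 fragments. The share of all genes separated in this downward direction is not given here, so the separation is only described. Gimap3 was the member with the lowest ratio of transgenic to wild-type fragments. Summed and scaled to library size, that ratio was 0.112 with an exact 95% interval of 0.0292 to 0.310, which covers counting error only. All 4 transgenic fragments came from replicate 1, and without that library the transgenic count is 0. With no filter on low counts, edgeR gave an unadjusted p of 0.0603 and an adjusted p of 0.50, and DESeq2 an unadjusted p of 0.0395 with no adjusted value. When a library was left out, Gimap3 passed the count filter only through its wild-type libraries, where it is higher. It was not tested without wild-type replicate 1 or 2. In the fits that did test it, edgeR gave an unadjusted p of 0.00653 without transgenic replicate 1 and 0.0917 without transgenic replicate 2. It was 0.0966 without transgenic replicate 3 and 0.0414 without wild-type replicate 3, with adjusted p from 0.309 to 0.651. These p-values depend on that filter, so no difference is read from them. The table's model of Gimap3 is 906 bases long, its coding sequence with the stop codon, whereas the same transcript in GENCODE M21 has 1968 bases. Fragments from its untranslated ends were therefore not counted, and the level is an estimate from the coding part alone.

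Wild-type replicate 1 was the wild-type library nearest to the transgenic ones in the mean of the tested members, while single members ranked the libraries differently. Transgenic replicates 1 and 3 were the highest library for 3 and 4 of the 7 tested members, transgenic replicate 3 was also the lowest for 2, and wild-type replicate 1 was the highest of the wild-type libraries for 7 of 7. On average over the 7, log2(CPM + 0.5) minus each gene's mean lay at 0.22, 0.04 and 0.08 in transgenic replicates 1, 2 and 3, against 0.06, -0.19 and -0.20 in wild-type replicates 1, 2 and 3. Wild-type replicate 1 thus lay above transgenic replicate 2. The summed CPM of all 8 members were 368, 333 and 363 in transgenic replicates 1, 2 and 3, against 335, 289.9 and 279.7 in wild-type replicates 1, 2 and 3. Transgenic replicate 3 was where the members differed most, with Gimap5 at 0.45, Gimap7 at -0.24 and Gimap4 at -0.33. In that library Gimap7 and Gimap4 rest on 139 and 18 fragments, and the part of counting error was not tested.

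**Figure D4:**
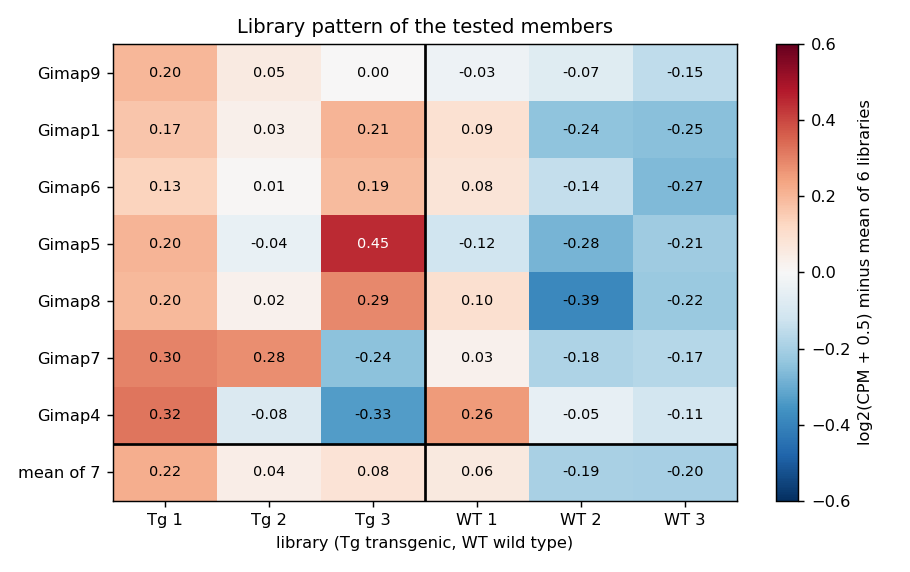
log2(CPM + 0.5) minus the mean over 6 libraries (colour and number) for the 7 tested members and their mean, in transgenic and wild-type libraries. Wild-type replicate 1 stands at 0.06 on average, between transgenic replicate 2 at 0.04 and replicate 3 at 0.08, while wild-type replicates 2 and 3 stand at -0.19 and -0.20.

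Genes of cell division also set wild-type replicate 1 nearest to the transgenic libraries. The summed CPM of 20 cell division genes, a list chosen with earlier results of these data known, were 3856, 4054 and 3450 in transgenic replicates 1, 2 and 3, against 4394, 5447 and 5606 in wild-type replicates 1, 2 and 3. Of 10 genes of the mature T cell list 7 reached 1 CPM, among them Il7r, which averaged 89.0 CPM in transgenic and 94.3 CPM in wild-type libraries. Low genes of the list do not stand for the whole of it. Among these, Cd40lg was at 0 in all libraries. S1pr1, which lets mature T cells leave the thymus, averaged 0.119 ± 0.115 CPM in transgenic and 0.0649 ± 0.0774 CPM in wild-type libraries (SD, n = 3 each). Klf2, a transcription factor of quiescent T cells that drives S1pr1, averaged 1.56 ± 0.830 CPM in transgenic and 1.02 ± 0.540 CPM in wild-type libraries (SD, n = 3 each). GIMAP genes are also active in endothelium. The 8 endothelial markers summed to 118 to 146 CPM in transgenic and 107 to 135 CPM in wild-type libraries, mostly Pecam1, which lymphocytes also express. Of the 8, 2 reached 1 CPM, Tek was at 0, and Cdh5 averaged 0.456 ± 0.0731 CPM in transgenic and 0.543 ± 0.435 CPM in wild-type libraries (SD, n = 3 each). Lists for other lymphocytes summed to more. The 8 B cell markers gave 134 to 151 CPM in transgenic and 148 to 172 CPM in wild-type libraries. The 8 natural killer and innate lymphoid markers gave 201 to 295 CPM in transgenic and 242 to 310 CPM in wild-type libraries. In each of these lists 2 genes reached 1 CPM. With a covariate for Y-linked RNA edgeR called 0 members, and the log2 fold changes of Gimap1 and Gimap5 were 0.27 (adjusted p = 0.0915) and 0.42 (adjusted p = 0.111). The part of cell division or of other cells in the Gimap values was not tested.

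The genes whose library pattern was most like the mean of the tested members were sought among 9027 other genes with a mean of at least 10 CPM, by the root mean square difference of the centred log2 values over the 6 libraries. They were Sun2, a protein of the inner nuclear membrane, Gna11, a G protein alpha subunit, Cyth1, an exchange factor for Arf GTPases, Plec, the cytoskeletal linker plectin, and Itpr2, an inositol trisphosphate receptor. Their differences were 0.0283 to 0.0332, against a median of 0.178 over the 9027 genes. Gimap1, Gimap6 and Gimap9 themselves differed from the mean by 0.0642, 0.0680 and 0.0714 and Gimap8 by 0.119. Gimap7, Gimap5 and Gimap4 differed by 0.169, 0.174 and 0.211, near the median of the other genes, although they are part of that mean. For Gimap7 and Gimap4 that median is not a like comparison. They averaged 4.33 and 0.722 CPM, below the 10 CPM asked of the other genes, and the part of counting error was not tested. Itpr2 lies on chromosome 6 too, and the others on chromosomes 15, 10 and 11.

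Gimap3, Gimap7 and Gimap8 have 1 transcript each in the deposited table, so no share can be read for them. Each of the other members was read mainly as a single transcript. For Gimap1 the 1493-base transcript took 96.0 ± 0.182% of the gene's fragments in transgenic and 95.2 ± 0.948% in wild-type libraries (SD, n = 3 each). For Gimap9 the 1384-base transcript took 91.0 ± 2.33% in transgenic and 89.1 ± 2.63% in wild-type libraries, and a 663-base form the rest (SD, n = 3 each). Gimap6 had a 3179-base transcript beside its main one of 1594 bases, with 11.3, 12.8 and 15.3% of the gene's fragments in transgenic replicates 1, 2 and 3, against 9.20, 11.8 and 11.98% in wild-type replicates 1, 2 and 3. These shares overlapped between the groups. Of the 21 member transcripts, 16 were tested in the authors' deposited table and 0 were significant, each with q = 0.998.

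The annotation limits how cleanly some members can be read. Gimap1os, on the other strand, overlaps 1107 of the 3073 exonic bases of Gimap1, and without a stated strand setting the fragments of the pair cannot be told apart. Gimap1os averaged 12.8 ± 1.27 CPM in transgenic and 10.7 ± 2.33 CPM in wild-type libraries (SD, n = 3 each). Gm28053, an annotated protein-coding gene on the same strand, shares 81, 198 and 153 exonic bases with Gimap7, Gimap1 and Gimap5. It was named after its values were seen. It had 1.56, 0.945 and 1.09 CPM in transgenic replicates 1, 2 and 3, against 0.263, 0.710 and 0.332 CPM in wild-type replicates 1, 2 and 3, a log2 fold change of 1.46 ± 0.56 SE (edgeR, adjusted p = 0.302).

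No other gene in or around the cluster passed the threshold either. Of 43 annotated genes within 300 kb of the members, 25 are in the table, 11 were tested and 0 were called by edgeR, with 3 higher in transgenic cells at an unadjusted p under 0.05 (Zfp467, Repin1 and Gm28053), beside 5.71% of all genes. The median log2 fold change of the 11 was 0.16, and 9 lay above 0, beside 50.2% of all genes. These counts include Gm28053 and Gimap1os, which lie within the cluster and overlap exons of members, so they are not independent of the members. Zfp467, a zinc finger gene, averaged 5.20 ± 0.464 CPM in transgenic and 3.12 ± 0.695 CPM in wild-type libraries (SD, n = 3 each), with a log2 fold change of 0.74 ± 0.23 SE (edgeR, adjusted p = 0.214). Repin1, another zinc finger gene, averaged 146 ± 7.13 CPM in transgenic and 130 ± 9.71 CPM in wild-type libraries (SD, n = 3 each). Other neighbours of at least 1 CPM were AI854703, Gm5111, Gimap1os, Krba1, Lrrc61, Tmem176a, Tmem176b and Zfp775, with log2 fold changes between -0.20 for Lrrc61 and 0.30 for Gm5111. Tmem176b and Tmem176a, membrane proteins beyond the Gimap3 end of the cluster, had log2 fold changes of 0.04 ± 0.08 and 0.13 ± 0.12 (SE).

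Genes that work with GIMAP proteins, or belong to like families, were also not called. Of 13 tested genes for proteins reported to act with a GIMAP, such as Bcl2 and Gabarapl2, 0 were called by edgeR. The log2 fold change was positive for 6 of them and its median -0.0085, and 2 were higher at an unadjusted p under 0.05. Gabarapl2, the partner of Gimap6, averaged 47.7 ± 3.57 CPM in transgenic and 44.2 ± 5.17 CPM in wild-type libraries, and Bcl2 142 ± 21.1 CPM in transgenic and 147 ± 10.8 CPM in wild-type libraries (SD, n = 3 each). Of 18 interferon-inducible GTPases of other families 0 were called and 6 lay above 0, with a median of -0.05. Of 10 tested septins, GTPases that form filaments, 0 were called and 4 lay above 0, with a median of -0.06. Of 14 tested genes of quiescence and the naive T cell state, a programme that goes with GIMAP expression in mature T cells, 0 were called and 11 lay above 0, with a median of 0.13. At an unadjusted p under 0.05 edgeR found 1, 1 and 2 genes higher and 0, 2 and 0 lower in these 3 lists. Of all genes, 5.71% were higher and 7.7% lower at that threshold, and 50.2% lay above 0. Only 0.0136% of all genes were called, so a count of 0 called says little about a list. The lists were chosen with earlier results of these data known, so their counts are a description only.

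Promoters were examined because the transgene encodes a factor that binds GATA motifs. RefSeq promoter windows, from 250 bases before to 50 after a start site, were found for all 8 members, 9 windows in all since Gimap8 has a pair of overlapping ones. Both strands were searched. The GATA motif TGATAA occurred in 1 of the 9, that of Gimap4, and in 9.05% of all 32851 promoters, while AGATAA occurred in 0 of 9 and in 11.2% of all. Only these GATA forms were searched. Others were not counted, such as AGATAG, which the Gimap1 window holds. The ETS motif CGGAAG occurred in 4 windows, of Gimap1, Gimap6 and both of Gimap8, which share the match, and in 16.9% of all. The Runx motif TGTGGT occurred in 3, of Gimap1, Gimap4 and Gimap7, and in 16.8% of all. The motif TGGGAA of CSL, the DNA-binding partner of Notch, occurred in that of Gimap3, after the start site, and in 25.6% of all. The E-box CAGGTG occurred in that of Gimap9 and in 20.2% of all, and CAGCTG in 0 of 9 and 16.3% of all. A match is a description of letters in the window and does not show that a factor binds there.

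The 250 bases before the start sites of Gimap4 and Gimap6 are shown (GRCm38.p6). Gimap4 holds the only match to the GATA forms searched and had the lowest level of the tested members. Gimap6 holds a pair of ETS matches and is abundant. Capitals mark the motifs, in the Gimap4 window the GATA and then the Runx match and in the Gimap6 window both ETS matches. All but the ETS match nearest to the Gimap6 start lie on the opposite strand and so appear as the reverse complement of the letters given above.

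Gimap4 (chr6:48684328-48684577, plus strand): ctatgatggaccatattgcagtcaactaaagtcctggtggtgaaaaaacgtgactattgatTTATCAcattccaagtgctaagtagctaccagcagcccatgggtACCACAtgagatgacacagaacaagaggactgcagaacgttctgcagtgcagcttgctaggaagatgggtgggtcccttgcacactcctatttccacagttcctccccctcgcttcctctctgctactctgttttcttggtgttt
Gimap6 (chr6:48708245-48708494, minus strand): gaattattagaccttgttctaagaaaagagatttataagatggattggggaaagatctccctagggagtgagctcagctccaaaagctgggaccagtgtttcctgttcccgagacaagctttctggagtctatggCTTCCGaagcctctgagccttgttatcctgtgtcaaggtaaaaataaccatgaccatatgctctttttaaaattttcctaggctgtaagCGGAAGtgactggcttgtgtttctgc

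Counted from the start site, the GATA match of Gimap4 begins at base -189, and the ETS matches of Gimap6 begin at bases -115 and -26. The values of both genes in every library are given above: Gimap6 stood at 66.8 to 91.9 CPM and Gimap4 at 0.457 to 1.01 CPM, without a called difference between transgenic and wild-type libraries.

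**Figure D5:**
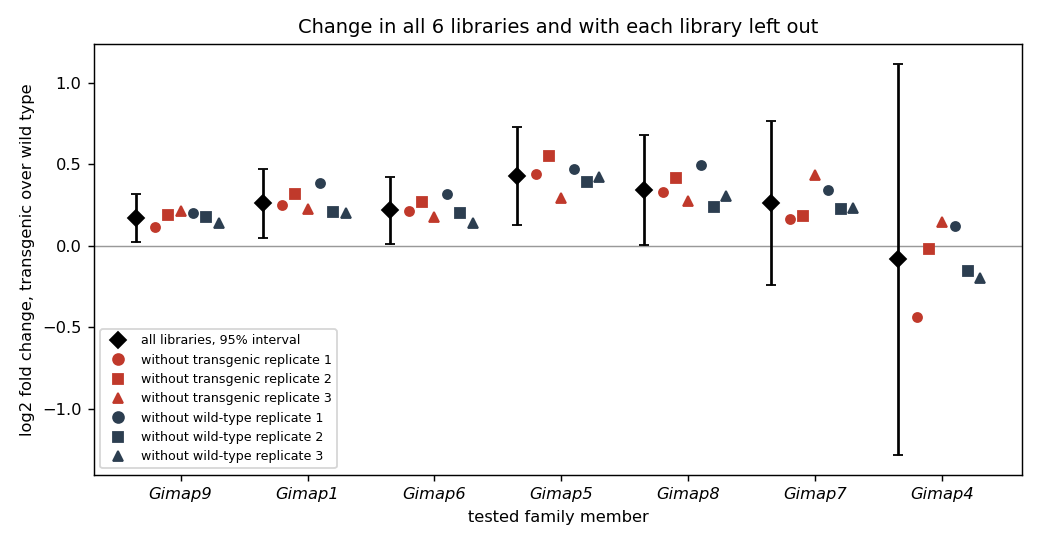
Log2 fold change, transgenic over wild type, of the 7 tested members in all 6 libraries (diamonds, with 95% intervals) and with each library left out in turn (red for transgenic, dark for wild type, shape for replicate). Except for Gimap4, every estimate lies above 0, and for Gimap1, Gimap6 and Gimap8 the estimate without wild-type replicate 1 is the highest, at 0.38, 0.32 and 0.49.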

How the data were processed

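The members and gene lists were chosen with earlier results of these data known. Libraries were made from total RNA after removal of ribosomal RNA, per the labels' protocols. TopHat2, Cuffdiff and mm10 are listed, with no version, per the submitters' processing notes. Annotation, read length and strandedness were not given in the sources used here. Per the file headers the authors deposited, for each transcript and library, an estimated count of fragments (expected count) and an FPKM value. Per transcript, the deposited comparison also holds a test score, a p-value, a q-value and a log2 fold change. The authors' externally scaled fragments, a signal column, played no part here.

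Expected counts of all transcripts of a symbol were added up, then rounded. The 197 genes at loci marked as failed estimates were left out. filterByExpr (minimum count 10, minimum total 15) kept 14653 genes, and edgeR 4.0.16 (R 4.3.3) tested 3 transgenic against 3 wild-type libraries with TMM scaling, glmQLFit and glmQLFTest, two-sided, without a covariate. Adjusted p-values are Benjamini-Hochberg over all genes, threshold 0.05. Standard errors derive from the F statistic, and 95% intervals from these with the test's degrees of freedom. Pairs of libraries within a group gave chi-square values per gene of 16.4 to 43.6, so no pair was counted as 1 sample. This compares a pair with counting error only and cannot tell whether its libraries came from separate mice. DESeq2 1.42.0 and limma 3.58.1 were alternatives. All 8 members were named whatever their p, with neighbours of at least 1 CPM within 300 kb and the 5 genes of most alike pattern. Gm28053, Klf2, S1pr1, Cdh5, Tek, Cd40lg, Cd4, Cd8a, Il7r, Bcl2 and Gabarapl2 were named after values were seen. Protein sequences were not used here, and 1 gene of the mature T cell list, with the list's summed level, is not reported here.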

Additional observations from a re-analysis of the deposited data

How the results depend on the processing

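Of the 7 tested members, 6 kept a positive log2 fold change under every alternative. Gimap4 ran from -0.43 to 0.15 when 1 library was left out. It turned positive in the absence of wild-type replicate 1 (0.12), of transgenic replicate 3 (0.15), and of both, which are the libraries with Y-linked RNA (0.35); its counts were at most 43 fragments. The count of members called was 0 to 1 over the fits leaving out 1 library, Gimap1 being called without wild-type replicate 1 (log2 fold change 0.38, adjusted p = 0.0228; adjusted p over all its alternatives 0.0228 to 0.645), and 0 under all other alternatives. Without both libraries with Y-linked RNA the log2 fold changes of Gimap1, Gimap5, Gimap6, Gimap7, Gimap8 and Gimap9 were 0.35, 0.34, 0.28, 0.52, 0.43 and 0.24. The order of FPKM levels was the same with CPM per kilobase of the main transcript and without any 1 library.

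The number of all genes called, 2 with edgeR, was 1 to 498 over the fits leaving out 1 library, the highest without wild-type replicate 1. It was 497 with DESeq2, 256 with a covariate for Y-linked RNA, 260 without both libraries with Y-linked RNA, 127 with no filter on low counts, 92 with the failed loci kept, 20 with a robust dispersion prior, 14 with the replicate number as a block (replicate block) and 4 with limma on log2(FPKM + 0.1); the cause was not tested. Deviations of same-numbered libraries from their group means correlated at 0.297, 0.373 and -0.0095 over 9032 genes, so the numbers were not taken to pair the samples, and under the block 0 members were called. Gimap3 and Gimap4 rest on few fragments, at most 20 and 43 in a library.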
